A study of Mus musculus with 6 samples.

Results

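Hox genes encode homeodomain transcription factors that give cells a position along the body axis, and in mammals they lie in 4 clusters, HoxA to HoxD, with paralog numbers that run from 1 for anterior members to 13 for posterior ones. Of the 39 Hox cluster genes in the mouse RefSeq gene table, 33 were read on the arrays by a probe set whose annotation names that gene alone, out of 18193 genes read in this way. Members were chosen by symbol, and a gene with several probe sets was read on the one that was brightest on average over the 6 arrays. HoxA, on chromosome 6, contributed 9 of its 11 genes, HoxB, on chromosome 11, 9 of 10, HoxC, on chromosome 15, 7 of 9, and HoxD, on chromosome 2, 8 of 9. The other 6 genes were not analysed here, among them Hoxb8 and Hoxd4, which are named only on probe sets that also carry the symbol of a neighbouring Hox gene.

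The cells were MIN6, an insulin-secreting line from a mouse insulinoma that stands in for pancreatic beta cells. They received an siRNA that targets Hlxb9, now called Mnx1, which encodes a homeobox factor of motor neurons and beta cells, or a negative control siRNA, both by nucleofection and a lipid reagent, and total RNA was taken 72 hours later. Each group had 3 arrays, numbered 1 to 3. RNA was used only where a western blot showed a loss of Hlxb9 protein above 75%, and the labels call the samples sorted cells without naming a gate. The labels do not say that arrays of a group came from separate cultures, although the design speaks of several independent transfections, so the p-values measure the spread between these arrays.

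Hox proteins bind short AT-rich sites through the homeodomain and gain selectivity from partners of the TALE class, the Pbx, Meis and Pknox proteins. Polycomb proteins keep Hox clusters silent in cells that do not use them, whereas the MLL methyltransferase with menin keeps them active. Cdx factors and retinoic acid act upstream of Hox genes in the mouse embryo. Mnx1 and the pancreatic regulator Pdx1 are homeobox genes of the same ANTP class, outside the clusters.

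Hoxa7, a mid-cluster gene that patterns the thoracic region, was the 1 Hox gene of 33 with a mean signal above the median of all probe sets, which was 5.16 on the log2 scale. Its promoter is shown because it is the sole member in that position, with those of its neighbours Hoxa9 and Hoxa6 for comparison. Each sequence gives the 250 bases before the annotated start, from RefSeq on build GRCm38.p6 and read on the minus strand, at chr6:52218574-52218823 for Hoxa7, chr6:52227371-52227620 for Hoxa9 and chr6:52208673-52208922 for Hoxa6. Capitals mark matches, on either strand, to one of 6 motifs chosen after the expression values were seen.
Hoxa7: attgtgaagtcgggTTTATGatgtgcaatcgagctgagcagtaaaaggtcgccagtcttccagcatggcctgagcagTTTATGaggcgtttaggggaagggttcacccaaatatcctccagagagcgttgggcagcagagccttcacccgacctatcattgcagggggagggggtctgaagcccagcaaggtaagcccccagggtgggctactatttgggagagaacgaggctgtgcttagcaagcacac
Hoxa9: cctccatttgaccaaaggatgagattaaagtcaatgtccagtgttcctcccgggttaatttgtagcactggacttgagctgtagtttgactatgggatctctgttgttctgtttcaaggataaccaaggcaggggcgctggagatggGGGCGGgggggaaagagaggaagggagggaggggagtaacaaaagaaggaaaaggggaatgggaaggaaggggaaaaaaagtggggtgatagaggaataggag
Hoxa6: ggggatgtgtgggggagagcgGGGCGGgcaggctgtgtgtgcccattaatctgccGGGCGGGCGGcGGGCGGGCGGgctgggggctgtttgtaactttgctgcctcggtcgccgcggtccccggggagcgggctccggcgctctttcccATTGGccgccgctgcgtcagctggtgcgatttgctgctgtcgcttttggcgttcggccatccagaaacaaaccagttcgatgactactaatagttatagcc

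The search covered the TATA box spelled TATAAA, the CCAAT box, the GC box spelled GGGCGG, a palindrome bound by many homeodomain proteins spelled TAATTA, a joint Hox and Pbx motif spelled TGATNNAT and a Cdx motif spelled TTTATG, each on both strands. The Hoxa7 window held TTTATG at 2 places, whose first bases lie 236 and 173 bases before the start, and no other of the 6 motifs. Among 32851 promoter windows of the same length, 10.8% held TTTATG at least once, and among 24 windows of Hox genes 5 did. The Hoxa9 window held 1 GC box, and the Hoxa6 window held 5 GC boxes, some overlapping, and 1 CCAAT box. GC boxes stood in 32.7% of all windows and CCAAT boxes in 33.8%. The Hoxa7 window had a GC content of 54.8% with 7 CpG dinucleotides, against 65.2% and 24 in the Hoxa6 window and 49.6% and 3 in the Hoxa9 window. Medians were 52.4% and 6 over all windows, and 58.6% and 12.5 over the 24 Hox windows. Of the 33 measured Hox genes, 19 had an entry in the promoter table. A match is a run of letters and not a measured binding site.

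In signal, 1 of 33 Hox genes (3.03%) lay above the median of all probe sets, against 62.4% of all genes read by their brightest probe set. Hoxa7 averaged 6.42 over the 6 arrays and was brighter than 60.7% of probe sets. It lay below the median over genes, each read on its brightest probe set, which was 7.02. The nearest gene below the median of all probe sets was Hoxc6, another thoracic patterning gene, at 4.85. The median over the 33 genes was 3.34, and the dimmest, Hoxb2, stood at 2.60. A dim signal is not a measured absence, because the deposited values carry no detection call and probe sets differ in how brightly they report a transcript, so the order of these signals is not an order of transcript amounts.

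**Figure D1:**
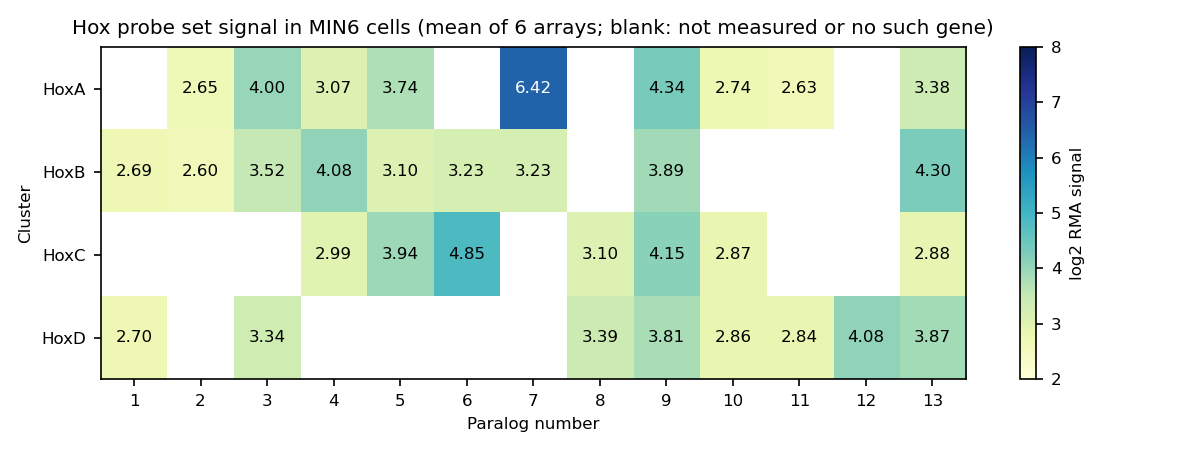
Mean log2 RMA signal over the 6 arrays for each measured Hox gene, with the cluster in rows and the paralog number in columns; blank cells are genes not measured or positions without a gene. Hoxa7, at 6.42, is the single value above the median of all probe sets (5.16), and all others lie between 2.60 and 4.85.

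By cluster, the signals ran from 2.63 to 6.42 in HoxA, from 2.60 to 4.30 in HoxB, from 2.87 to 4.85 in HoxC and from 2.70 to 4.08 in HoxD. The measured genes nearest to Hoxa7 in its cluster, Hoxa9 and Hoxa5, lay below the median, and Hoxa6 is among the genes not analysed here in signal. Hoxa9, a gene of blood cell progenitors and leukaemia, read 4.34, and Hoxa5, which patterns lung and neck, read 3.74. Hoxb7, the paralog of Hoxa7 in HoxB, read 3.23. By paralog number, the medians were 3.03 for the 10 genes numbered 1 to 4, 3.39 for the 9 numbered 5 to 8, and 3.59 for the 14 numbered 9 to 13. Hoxa7 exceeded the median of each array, by 0.90, 0.99 and 1.05 on the Hlxb9 siRNA arrays and by 1.35, 1.74 and 1.56 on the control arrays. One other gene crossed an array's own median, on control replicate 3 alone, where Hoxc6 read 5.17 against 5.08.

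The other probe sets that name Hox genes were also below the median. There were 15 further probe sets for 11 of the genes, with signals from 2.55 to 3.99, 3 probe sets that name 2 Hox genes, from 2.78 to 3.33, and 5 for the transcripts Hoxa11os, Hoxb5os and Hoxd3os1 from the opposite strand, from 2.46 to 3.13. Hoxa7 has 1 probe set, so its value could not be set against a second one.

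Beta cell identity was checked on the same arrays. All 10 measured beta cell markers lay above the median of all probe sets, among them Iapp (islet amyloid) at 14.41, Ins2 (insulin) at 13.83 and Pdx1 at 12.06. Neuronal markers, several of which beta cells share, were above it in 6 of 6. For other cell types the counts were 3 of 10 for fibroblasts (Col1a1, Pdgfrb and Vim), 1 of 6 for exocrine pancreas (Cela1), 1 of 5 for endothelium (Esam) and 1 of 5 for blood (Cd68). Control replicate 3 stood apart, correlating with the other arrays at 0.988 to 0.991 where the other 5 correlated at 0.995 or higher. On it the signal of Gapdh was 2.13 log2 brighter near the 3' than near the 5' end of the transcript, and the gap was 0.65 to 0.78 on the others.

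Mnx1, the siRNA target, read 7.53, 7.41 and 7.28 on the Hlxb9 siRNA arrays and 7.82, 7.50 and 7.77 on the control arrays. The difference was -0.29 ± 0.13 log2 (limma SE, adjusted p = 0.659), and the two-sided exact permutation p was 0.2, where 3 against 3 arrays allow no p below 0.1. The groups overlapped, so this transcript does not check the labels on these arrays.

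The comparison of Hlxb9 siRNA with control siRNA asked which Hox genes differ when Hlxb9 protein is reduced. Hoxa7 had the largest difference of the 33. It read 6.10, 6.20 and 6.21 log2 on the Hlxb9 siRNA arrays, against 6.51, 6.91 and 6.63 on the control arrays. All 3 Hlxb9 siRNA values lay below all 3 controls, and the spread was smaller after Hlxb9 siRNA, with means of 6.17 ± 0.06 and 6.68 ± 0.20 (SD, n = 3 each). The difference was -0.52 ± 0.13 log2 (SE, 95% interval from -0.81 to -0.22), a signal 30.1% lower. It did not pass limma's test over all 45037 probe sets (adjusted p = 0.645, unadjusted p = 0.00395), and the exact permutation p was 0.1, the smallest this design allows. Of all genes, 0.456% had a difference as low or lower and 0.566% an unadjusted p as small or smaller. Within the pairs of equal number, Hoxa7 was lower by -0.41, -0.71 and -0.43 log2, and with the replicate number as a block the adjusted p was 0.482.

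Without control replicate 3 the difference of Hoxa7 was -0.54 log2, so it was as large without the array that stood apart. Leaving out each array in turn gave values from -0.60 to -0.40, the smaller size without control replicate 2. When arrays were weighted by how closely they follow their group means, Hoxa7 passed, with a difference of -0.67 (limma adjusted p = 0.0326). Those weights were 0.758, 2.91 and 0.792 for Hlxb9 siRNA replicates 1, 2 and 3 and 0.628, 4.46 and 0.204 for control replicates 1, 2 and 3, so the weighted value rests mostly on the arrays numbered 2, whose pair has the largest difference. In the weighted fit 1.02% of all genes passed as lower. The weighted call of Hoxa7 was lost without any one of the 6 arrays (adjusted p from 0.0867 to 0.931).

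**Figure D2:**
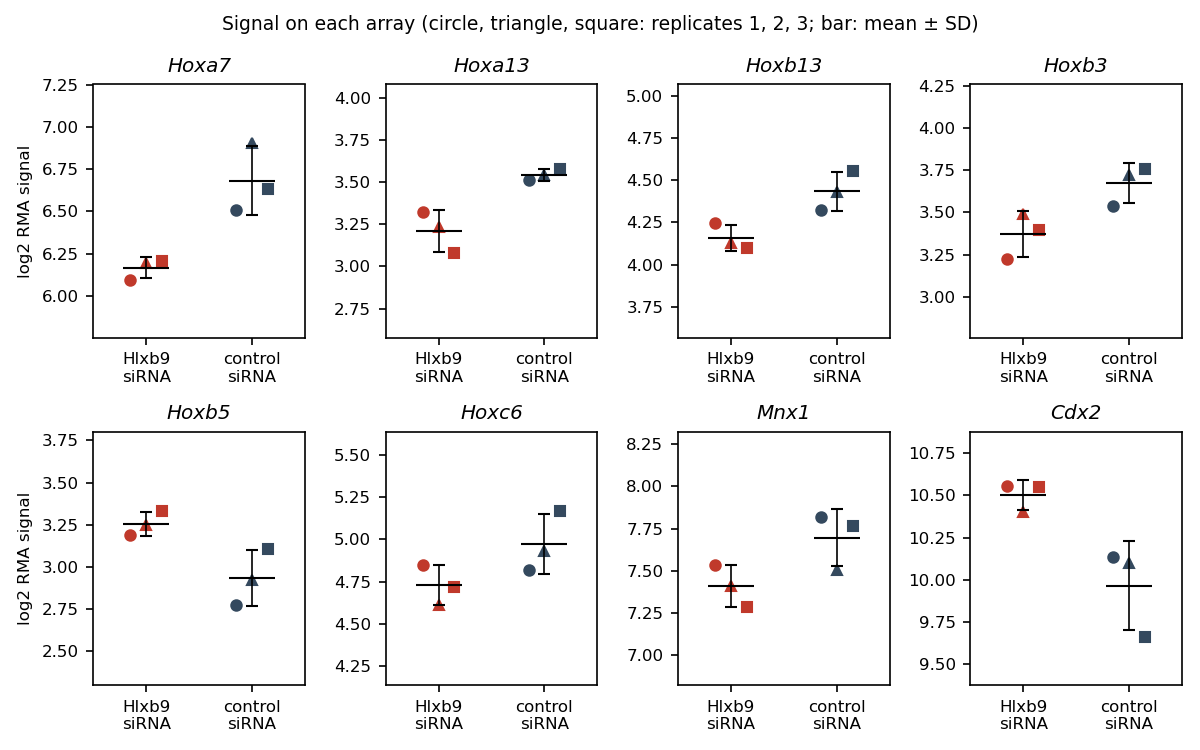
Log2 RMA signal on each array for Hoxa7, the other Hox genes with an unadjusted limma p under 0.05, Hoxc6, Mnx1 and Cdx2, with Hlxb9 siRNA at the left and control siRNA at the right of each panel; symbols are replicates, bars are mean ± SD, and each panel spans 1.5 log2 around its own level. Hoxa7 separates the groups, at 6.10 to 6.21 after Hlxb9 siRNA and 6.51 to 6.91 in controls, while Mnx1 overlaps between them.

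Across the family, limma called 0 of 33 Hox genes at an adjusted p of 0.05, with adjusted p from 0.645 to 0.999, and it called 0% of all genes. At an unadjusted p of 0.05, 4 Hox genes (12.1%) were lower, against 3.74% of all genes and 4.57% of genes below the median signal, and 1 (3.03%) was higher, against 4.21% of all genes and 2.02% of genes below the median signal. The lower ones were Hoxa7, Hoxa13, Hoxb3 and Hoxb13, and the higher one was Hoxb5. Without Hlxb9 siRNA replicate 3 there was 1 lower gene, and without control replicate 3 there were 2 lower and 2 higher. The count of higher genes was 0 without Hlxb9 siRNA replicate 2 and without control replicate 1 or 2. Shares of all genes were not counted with arrays left out, so these counts have no background beside them.

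Hoxa13, which shapes the digits and the hindgut, read 3.32, 3.23 and 3.08 after Hlxb9 siRNA and 3.51, 3.54 and 3.58 in controls. Its groups did not overlap, and the difference was -0.33 ± 0.11 log2 (SE). Hoxb13, a gene of the tail bud and prostate, read 4.25, 4.13 and 4.10 after Hlxb9 siRNA and 4.32, 4.43 and 4.55 in controls, a difference of -0.28 ± 0.11. Both are posterior members with dim probe sets, brighter than 23.1% (Hoxa13) and 40.5% (Hoxb13) of all probe sets. Hoxb3, a hindbrain gene, read 3.22, 3.49 and 3.39 after Hlxb9 siRNA and 3.54, 3.72 and 3.76 in controls, a difference of -0.30 ± 0.12. A second probe set of Hoxb3 gave -0.06, and 0.06 without control replicate 3.

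Hoxb5, which acts in the neural crest of the gut and in lung, had higher values, at 3.19, 3.25 and 3.33 after Hlxb9 siRNA and 2.78, 2.92 and 3.11 in controls. The difference was 0.32 ± 0.12 log2 (SE), the highest of the family, and the groups did not overlap. Next in the upward direction by p came Hoxb6, a thoracic gene, Hoxd1, an anterior gene of sensory neurons, and Hoxd9, a limb and trunk gene. Hoxb6 read 3.29, 3.23 and 3.32 after Hlxb9 siRNA and 3.19, 3.09 and 3.26 in controls. Hoxd1 read 2.91, 2.98 and 2.45 after Hlxb9 siRNA and 2.56, 2.68 and 2.63 in controls, so its replicate 3 lay below every control. Hoxd9 read 4.04, 3.96 and 3.67 after Hlxb9 siRNA and 3.55, 3.56 and 4.09 in controls. Hoxb6 differed by 0.10 log2 and Hoxd1 and Hoxd9 by 0.15 each, and the groups of all 3 overlapped. Single arrays moved these values. Hoxb6 was at 0.06 without control replicate 2. Hoxd1 was at 0.32 when replicate 3 of Hlxb9 siRNA was left out, at 0.05 when replicate 2 was, and at 0.09 when replicate 1 was. Hoxd9 was at 0.33 without control replicate 3 and 0.27 without Hlxb9 siRNA replicate 3, and at 0.06 to 0.08 without control replicate 1, control replicate 2 or Hlxb9 siRNA replicate 1.

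Lower values outnumbered higher ones in the family, 24 against 9, with a median difference of -0.14 log2, against 0.0023 over all genes. The share lower was 72.7%, against 49.4% of all genes and 62.6% of the 6848 genes below the median signal, whose median difference was -0.05. The dim genes of the array leaned the same way, and how much of the Hox lean moves with dim signal was not tested. Without Hoxa7, 23 of 32 were lower with a median of -0.13. The median moved to -0.09 without Hlxb9 siRNA replicate 1 and was -0.10 without control replicate 3. Without that array 23 of 33 Hox genes were lower (69.7%), against 43.3% of all genes and 51.2% of genes below the median signal, whose median was -0.0046. These counts use the brightest probe set of each gene. Of the probe sets not read for a gene, 9 of the 15 further ones had a mean difference below 0 with all 6 arrays in the fit. So did 1 of the 3 that name 2 Hox genes and 1 of the 5 for opposite strand transcripts. With all probe sets of each gene averaged, 24 of 33 genes were lower, with a median of -0.059.

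Groups did not overlap in 6 Hox genes that were lower after Hlxb9 siRNA (18.2%), against 7.75% of all genes and 8.53% of genes below the median signal, and in 2 that were higher (6.06%), against 9.55% of all genes and 3.68% of genes below the median signal. Besides Hoxa7, Hoxa13, Hoxb3 and Hoxb13, the lower ones were Hoxc13, a hair follicle gene, at -0.23 log2, and Hoxd8 at -0.14. A second probe set of Hoxd8 gave -0.02 with overlapping groups, and 0.13 without control replicate 3. Hoxc13 read 2.78, 2.72 and 2.80 after Hlxb9 siRNA and 2.85, 2.88 and 3.24 in controls, and without control replicate 3 its difference was -0.10. The higher ones were Hoxb5 and Hoxc4, with Hoxc4 at 0.08. All 3 pairs of equal number were lower in 14 Hox genes (42.4%), against 16.5% of all genes and 21.4% of genes below the median signal. All 3 were higher in 4 (12.1%), against 19.0% of all genes and 9.71% of genes below the median signal.

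Control replicate 3 held the highest value of the 6 arrays in 14 of the 33 Hox genes, and Hlxb9 siRNA replicate 1 the lowest in 12. The median deviation of the Hox genes from their own means was -0.05, -0.03 and -0.04 log2 on Hlxb9 siRNA replicates 1, 2 and 3, and 0.0042, -0.0065 and 0.10 on control replicates 1, 2 and 3. The part of the RNA difference on control replicate 3 in these values was not tested.

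**Figure D3:**
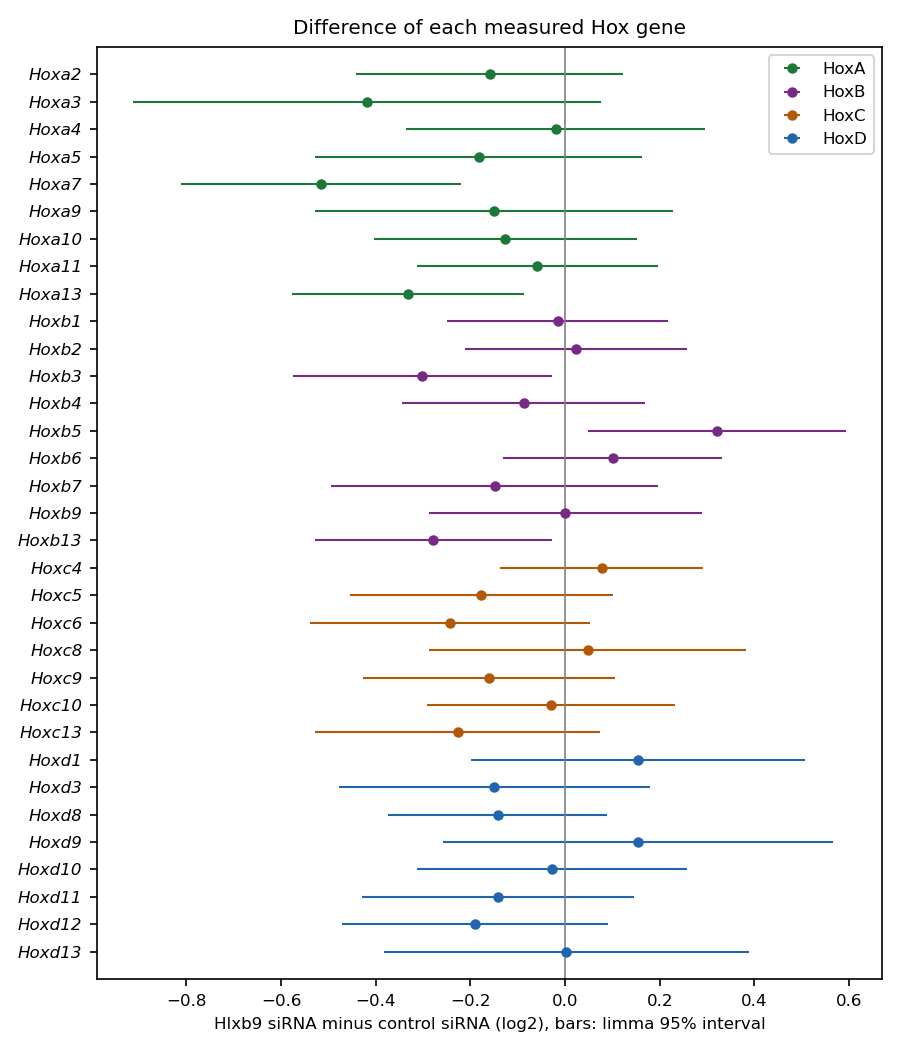
Difference of each measured Hox gene, Hlxb9 siRNA minus control siRNA in log2 RMA signal, with limma's 95% interval, ordered by cluster and paralog number. Hoxa7 lies farthest to the left at -0.52, Hoxb5 farthest to the right at 0.32, and the intervals of 28 genes cross 0.

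By cluster, HoxA had 9 of 9 measured genes below 0 with a median of -0.16 log2, each read on its brightest probe set. Every HoxA gene with several probe sets had another one that was higher. These were Hoxa3 at 0.045, Hoxa4 at 0.01, Hoxa5 at 0.17, Hoxa9 at 0.07 and Hoxa10 at 0.12. The count of lower HoxA genes was 8 of 9 after repeated quantile normalization, 6 of 9 with array weights, 6 of 9 on plain probe sets alone and 7 of 9 without control replicate 3. After Hoxa7, the lowest was Hoxa3, a gene of the pharyngeal arches, at -0.42 ± 0.21 (SE). It read 3.58, 3.82 and 3.96 after Hlxb9 siRNA and 3.99, 3.94 and 4.69 in controls, with control replicate 3 far above the rest. Without that array the difference of Hoxa3 was -0.18. The 3 other probe sets of Hoxa3 differed by -0.40 to 0.045 with all 6 arrays in the fit. Hoxa9 read 4.44, 3.98 and 4.37 after Hlxb9 siRNA and 4.61, 4.19 and 4.44 in controls, a difference of -0.15 with overlapping groups, and its other probe set differed by 0.07. Leaving out each array gave -0.26 without control replicate 2, -0.05 without control replicate 1, -0.01 without Hlxb9 siRNA replicate 2 and -0.24 without Hlxb9 siRNA replicate 1.

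HoxB had 5 genes lower and 4 higher with a median of -0.02, HoxC 5 and 2 with -0.16, and HoxD 5 and 3 with -0.08. Without control replicate 3 the medians were -0.14 for HoxA, -0.04 for HoxB, -0.10 for HoxC and -0.08 for HoxD. Hoxc6 read 4.85, 4.61 and 4.72 after Hlxb9 siRNA and 4.82, 4.93 and 5.17 in controls. Its groups overlapped and the difference was -0.24 ± 0.13 (SE), while its 2 other probe sets differed by -0.46 and -0.26. Without control replicate 3, the highest of the 6 values, the difference of Hoxc6 was -0.15, and the other probe sets stood at -0.23 and -0.20. Hoxb7, the paralog of Hoxa7, differed by -0.15 with overlapping groups (95% interval from -0.49 to 0.20), and leaving out each array in turn gave -0.29 to -0.05, the smallest size without Hlxb9 siRNA replicate 1 and the largest without Hlxb9 siRNA replicate 3. By paralog number, 7 of 10 genes numbered 1 to 4, 6 of 9 numbered 5 to 8 and 11 of 14 numbered 9 to 13 were lower, with medians of -0.05, -0.15 and -0.13. Without control replicate 3 these were -0.03, -0.12 and -0.09. Of the 11 Hox genes with several probe sets, 7 had one that differed in the opposite direction, 3 of them (Hoxa5, Hoxa10 and Hoxd13) by 0.1 log2 or more.

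**Figure D4:**
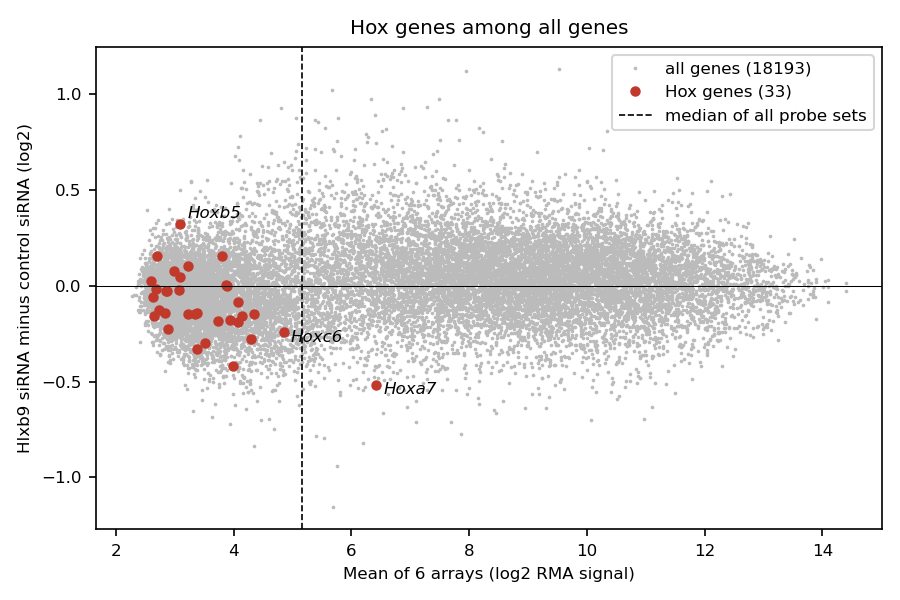
Each gene's difference, Hlxb9 siRNA minus control siRNA in log2, against its mean log2 RMA signal over 6 arrays, with 18193 genes in grey, the 33 Hox genes in red and a dashed line at the median of all probe sets (5.16). The Hox genes sit left of the line apart from Hoxa7, which lies at 6.42 and -0.52.

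The TALE partners of Hox proteins were mostly above the median signal, 7 of 8 measured, and 0 passed limma's test at either the adjusted or the unadjusted threshold. They split into 4 lower and 4 higher, with a median difference of 0.02 log2, and -0.02 without control replicate 3. Those with the smallest p were Pknox2 at 0.23, Pknox1 at 0.47 and Pbx3 at 0.10, each read on its brightest probe set. Other probe sets differed by -0.11 for Pknox2, by 0.01 and 0.32 for Pknox1 and by 0.41 for Pbx3. Pknox1 read 7.84, 7.76 and 7.95 after Hlxb9 siRNA and 8.25, 7.75 and 6.14 in controls, and without the low control replicate 3 it stood at -0.15. Pknox2 stood at -0.0037 without that array.

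All 33 measured Polycomb and Trithorax regulators lay above the median signal, with 14 lower, 19 higher and a median of 0.01 log2 (0.04 without control replicate 3), and 0 had an unadjusted limma p under 0.05. The histone methyltransferase Nsd1 differed by 0.24, the Polycomb subunit Phc3 by 0.18 and the demethylase Kdm6a by 0.29. Menin (Men1) differed by -0.17 and the MLL gene Kmt2a by 0.23, and without control replicate 3 these were 0.01 and -0.09. Kdm6a stood at 0.13 without that array, and at 0.49 without control replicate 1, and its 3 other probe sets differed by -0.46 to 0.32. Other probe sets differed by -0.32 to 0.04 for Nsd1, by -0.35 and 0.12 for Men1, by 0.04 for Phc3 and by 0.05 for Kmt2a. The PRC2 genes Ezh2 and Eed differed by 0.01 each and Suz12 by -0.13, and without control replicate 3 by 0.12, 0.06 and -0.21. Another probe set of Eed differed by 0.25, and the 5 others of Suz12 by -0.34 to 0.04.

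Among 17 ParaHox and Hox-linked homeobox genes, 4 were above the median signal (Pdx1, Cdx2, Mnx1 and Meox2), 12 were lower and 5 higher, and the median difference was -0.06, or -0.02 without control replicate 3. With an unadjusted limma p under 0.05, 0 of the 17 were lower, against 3.74% of all genes, and 1 (5.88%) was higher, against 4.21%. This was Cdx2, a ParaHox gene of the intestine and trophoblast (limma adjusted p = 0.645). It read 10.56, 10.40 and 10.55 after Hlxb9 siRNA and 10.14, 10.10 and 9.66 in controls. The groups did not overlap, and the difference of 0.54 ± 0.15 log2 (SE) ran opposite to that of Hoxa7. It was 0.39 without control replicate 3, and the other Cdx2 probe set differed by 0.08. Meox1, a somite gene, differed by -0.41, and by -0.17 without Hlxb9 siRNA replicate 1. Pdx1 differed by -0.11.

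Genes near the clusters were mostly above the median signal, 18 of 22. They split into 12 lower and 10 higher, with a median of -0.01. At an unadjusted limma p of 0.05, 2 of the 22 (9.09%) were lower, against 3.74% of all genes. In the other direction 1 (4.55%) was higher, against 4.21% of all genes. The lower ones were Cbx1 near HoxB (a heterochromatin protein) at -0.31 and Lnpk near HoxD at -0.34 (-0.20 without Hlxb9 siRNA replicate 1). Skap2 near HoxA, a signalling adaptor, was the higher one at 0.27. Other probe sets of Cbx1 differed by -0.11 to 0.14, of Lnpk by 0.03 and 0.23 and of Skap2 by 0.05 and 0.10. Evx1 and Evx2, homeobox genes beside HoxA and HoxD, read 3.55 and 4.04 after Hlxb9 siRNA and 3.68 and 4.15 in controls, and without control replicate 3 the difference of Evx1 was -0.02.

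Of 16 retinoic acid genes, 8 were above the median signal, 9 were lower and 7 higher, with a median of -0.06, and without control replicate 3 there were 7 lower and 9 higher, with a median of 0.03. Of the 16, 0 were higher at an unadjusted limma p under 0.05, against 4.21% of all genes, and 1 (6.25%) was lower, against 3.74%. This was Rdh10, which makes retinal from retinol, at 7.13, 7.35 and 7.61 after Hlxb9 siRNA and 7.71, 7.65 and 7.84 in controls. The groups did not overlap and the difference was -0.37 ± 0.14 log2 (SE, limma adjusted p = 0.653), while its other probe set differed by 0.27. The synthesis enzyme Aldh1a3 differed by -0.27 and the degrading enzyme Cyp26b1 by -0.25, and Cyp26b1 by -0.15 without control replicate 2.

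Among markers of other cell types, list means overlapped between the groups. The mean over the fibroblast list was 4.19 to 4.36 after Hlxb9 siRNA and 4.26 to 4.38 in controls, and that of the blood list 4.20 to 4.25 and 4.08 to 4.27. In the blood list Cd68 was higher by 0.54 and Csf1r lower by -0.36, both with groups that did not overlap. The 2 other probe sets of Csf1r differed by -0.21 and 0.06. The part of these markers in the Hox values was not tested.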

How the data were processed

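RNA from 6 MIN6 cell samples was hybridised to Affymetrix mouse expression arrays, as biotinylated cRNA from 6 ug of total RNA, per the labels' protocols. The deposited values are log2 signals, and the submitters' processing notes name RMA (background correction, quantile normalization and probe set summary) and Partek. Their versions and settings and the test used are not given in these sources. Arrays have no sequencing depth, so precision is limited by how many there are.

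From the 45101 probe sets, 64 control probe sets were set aside. Of the other 45037, 34945 have 1 symbol in the platform annotation, 932 have more than 1, and 9160 carry no name here. For 34741 the Entrez identifier matched the RefSeq table of GRCm38.p6, and 0 symbols changed. The comparison of Hlxb9 siRNA with control siRNA used limma 3.58.1 in R 4.3.3 (lmFit and eBayes, no covariate, two-sided, Benjamini-Hochberg over all 45037 probe sets, threshold 0.05). The procedure was tested on simulated data with planted changes larger than any Hox difference here. That test therefore does not bear on differences of the size seen in these genes. Values after ± are SD for group means and moderated SE for differences, and fold or percent values derive from log2 differences.

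All Hox genes were accounted for. The rule for values on every array took Hoxa7, members above the median and the 4 per direction with the smallest p, and other lists gave up to 3 genes by p. Hoxa3, Hoxa9, Hoxc6 and some regulators outside the rule were named after their values were seen. The members and lists were chosen with earlier results of these data known. The replicate numbers were taken to pair the arrays, since deviations from group means correlated at 0.155, 0.165 and 0.202 between arrays of equal number. These correlations are weak and do not establish a pairing. The pairing is an assumption that comes from the values and not from the labels. Alternatives were other normalizations, an offset of 32, a filter on dim probe sets, a variance trend, array weights, the replicate block, leaving out each array and other probe set choices.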

Additional observations from a re-analysis of the deposited data

How the results depend on the processing

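The 8 Hox genes described by p kept their direction in all 118 values recomputed under the alternatives, and 1 of these passed the threshold, Hoxa7 with array weights. These genes were picked by p on the same arrays, so a kept direction is no independent support. The variance trend and the replicate block cannot change a difference. Neither can another probe set choice for a gene with 1 probe set. The range of Hoxa7 over 21 alternatives was -0.70 to -0.38 log2. With array weights 1 Hox gene passed, 9 were lower and 2 higher at an unadjusted p of 0.05 (11.3% and 13.3% of all genes), and the median difference was -0.089. Centring each array on its median gave 0 higher genes and a median of -0.19, and the offset of 32 gave 0 and -0.026, since an offset compresses dim values. Leaving out dim probe sets kept Hoxa7 alone, with 1 lower gene, 0 higher and a median of -0.52. Averaging all probe sets of each gene gave a median of -0.059. Without each array in turn the lower count ran from 1 to 4, the higher count from 0 to 2, the median from -0.115 to -0.087, and 0 genes passed. Shares of all genes at an unadjusted p of 0.05 were counted for the main and weighted fits alone. No Hox gene lay above the 75th percentile or above the median over genes (7.02), where the count was 0, and under the other alternatives for that count it was 1. With the replicate block the counts stayed at 0 past the threshold, 4 lower and 1 higher, and the block changed no other call. Mnx1 differed by -0.38 to -0.14 over its alternatives and never passed. Weighted fits without each array, and values without single arrays for genes and lists other than the 8 genes described by p, were added after seeing the data. RMA values near the floor carry little signal over background, which limits every Hox gene other than Hoxa7.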
